A study of Mus musculus with 8 samples.

Results

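The 10 chemokine genes described here are Ccl2, Ccl3, Ccl4, Ccl6, Ccl7, Ccl8, Ccl9, Cxcl1, Cxcl2 and Pf4, genes whose products draw monocytes or neutrophils into tissue or, for Pf4, belong to the same family. They were listed by name, and several were selected on their high counts in the libraries gated as cDC2. All 10 were found among the 24369 gene symbols of the count table, and all 10 passed the filter on low counts that left 11394 genes. Differences between cDC2 and cDC1 were therefore part of the choice and are given as values with no test, whereas EGFP-positive and EGFP-negative libraries were tested against each other. That choice is not shown to be independent of the EGFP fraction, since a high level in 1 fraction of cDC2 raises the level of the whole gate.

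The cells were dendritic cells sorted from tumours of MC38-EGFP, a mouse colon carcinoma line carrying enhanced green fluorescent protein, and the genotype field of all 8 samples reads WT. The 4 groups were EGFP-positive cDC2, EGFP-negative cDC2, EGFP-positive cDC1 and EGFP-negative cDC1, with 2 libraries each. All 4 groups came from the same kind of tumour, so none of them is a tumour-free control, and the EGFP fraction separates cells that carry the label of the tumour from cells that do not. The labels give no age, no drug, no gating markers and no number of animals or cells, and their field for cell type names the colon cancer and not the sorted cell. All replicate 1 titles share one code and all replicate 2 titles another, with no meaning given. The labels do not say that replicates came from separate animals, so the spread that p-values measure here may be only technical.

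Chemokines are small secreted proteins that guide leukocytes through G protein-coupled receptors. They fall into the CC family, which includes the main attractants of monocytes, and the CXC family, whose members with the residues Glu-Leu-Arg before the first cysteines attract neutrophils through CXCR2. In tumours, CCL2 and its relatives are known for recruiting CCR2-positive monocytes, and myeloid cells are a main source of these proteins. Transcription of many of the genes is driven by NF-kB, and the mRNAs are short-lived.

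The genes lie in gene clusters of the mouse genome (GENCODE M21, GRCm38). On chromosome 11, Ccl2 (82035571 to 82037453, plus strand), Ccl7 (82045712 to 82047525, plus strand) and Ccl8 (82115185 to 82116799, plus strand) form one cluster. Further along the same chromosome lie Ccl9 (83572919 to 83578636, minus strand), Ccl6 (83587882 to 83593087, minus strand), Ccl3 (83647844 to 83649355, minus strand) and Ccl4 (83662584 to 83664683, plus strand). Pf4 (90772435 to 90773383, plus strand), Cxcl1 (90891241 to 90893115, plus strand) and Cxcl2 (90903871 to 90905938, plus strand) are on chromosome 5. Ccl7 starts 8259 bases after the end of Ccl2, and Cxcl2 starts 10756 bases after the end of Cxcl1, with no other protein-coding gene annotated in that second interval. Ccl2 overlaps the gene Gm17268 and Ccl6 the gene E230016K23Rik, so reads from the overlapping stretches make their counts uncertain. E230016K23Rik had at most 224 counts in any library. Of the 50-base stretches in its coding transcript, 5.75% of Cxcl2 were shared with Cxcl3 and 2% of Ccl9 with other genes, and for the other 8 genes no stretch was shared.

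The promoters of 4 of the genes are shown because the results below turn on how these pairs behave. Cxcl1 and Cxcl2 are neighbours that were high in different libraries, and Ccl8 and Pf4 had the most similar pattern over libraries of any pair of the 10 from separate chromosomes. The sequences are the 250 bases before the transcription start in RefSeq (GRCm38.p6), read 5′ to 3′ on the strand of the gene, which is the plus strand for all 4. Their positions are chr5:90890995-90891244 for Cxcl1, chr5:90903649-90903898 for Cxcl2, chr11:82114935-82115184 for Ccl8 and chr5:90772185-90772434 for Pf4. Capitals mark matches to the letters GGGA, then any 4 bases, then CC, a form of the NF-kB binding sequence, on either strand, with overlapping matches merged.
Cxcl1: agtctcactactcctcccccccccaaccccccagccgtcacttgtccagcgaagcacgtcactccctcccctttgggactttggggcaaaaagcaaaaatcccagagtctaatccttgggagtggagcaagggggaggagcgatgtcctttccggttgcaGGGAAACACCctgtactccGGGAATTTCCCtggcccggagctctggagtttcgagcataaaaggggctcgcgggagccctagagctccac
Cxcl2: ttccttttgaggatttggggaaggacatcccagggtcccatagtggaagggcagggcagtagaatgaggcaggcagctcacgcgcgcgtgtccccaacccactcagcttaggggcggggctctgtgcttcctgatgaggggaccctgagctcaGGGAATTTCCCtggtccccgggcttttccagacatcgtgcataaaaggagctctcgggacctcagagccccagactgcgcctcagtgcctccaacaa
Ccl8: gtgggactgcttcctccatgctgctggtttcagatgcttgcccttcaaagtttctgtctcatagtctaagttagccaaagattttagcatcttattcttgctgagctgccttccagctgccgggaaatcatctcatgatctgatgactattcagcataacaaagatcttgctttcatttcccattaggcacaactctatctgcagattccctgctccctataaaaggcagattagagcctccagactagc
Pf4: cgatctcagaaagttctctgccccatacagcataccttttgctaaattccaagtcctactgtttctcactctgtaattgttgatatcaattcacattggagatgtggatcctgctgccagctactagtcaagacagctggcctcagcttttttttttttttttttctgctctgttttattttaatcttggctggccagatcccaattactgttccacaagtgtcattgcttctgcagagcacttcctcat

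Cxcl1 and Cxcl2 both hold the stretch GGGAATTTCCC, which matches on both strands. It begins 71 bases before the RefSeq start in Cxcl1 and 97 bases before that in Cxcl2. The RefSeq start lies 4 bases into the GENCODE coding transcript of Cxcl1 and 26 bases into that of Cxcl2. The distances thus depend on the annotation. Cxcl1 holds a further match, GGGAAACACC, 90 bases before its start. Ccl8 and Pf4 hold no match in this window, nor do Ccl3, Ccl6 and Ccl9, with 7 of the 10 genes matched by symbol. Ccl2, Ccl4 and Ccl7 were not searched here. For comparison, 17.6% of 32851 promoter windows of the same length hold a match on either strand. A match is a description of the letters and not evidence of a site in use.

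Library totals ranged from 17869441 to 22195681 counts, and 3 counts in a library corresponded to 0.131 to 0.211 CPM after scaling. Levels are TMM-scaled CPM, the counts of a gene set against the scaled library total, with replicates 1 and 2 given in that order. The libraries gated as cDC2 held much macrophage RNA: the summed level of 12 macrophage markers was 18498 to 39738 CPM in cDC2, with all 12 detected, and 425 to 11423 CPM in cDC1, where Mertk was at 0. The 7 cDC2 markers summed to 684 to 856 CPM in cDC2 and 6.74 to 327 CPM in cDC1, and the 8 cDC1 markers to 116 to 380.3 CPM in cDC2 and 1301 to 2636 CPM in cDC1. Flt3, the growth factor receptor of the cDC lineage, was at most 10.8 CPM in the 4 cDC2 libraries and at least 67.2 CPM in the 4 cDC1 libraries, and Zbtb46, a transcription factor of the same lineage, at most 1.04 CPM in cDC2 and at least 10.1 CPM in cDC1. Both are from a list of 5 shared cDC markers. These summed to 53.4 to 79.4 CPM in EGFP-positive and 68.5 to 86.6 CPM in EGFP-negative cDC2. In cDC1 they summed to 223.6 to 412.4 CPM in the EGFP-positive and 500.3 to 592.6 CPM in the EGFP-negative fraction. Kmo and Dpp4 of this list were also lower in cDC2, whereas Itgax overlapped, at 51.9 to 82.6 CPM in cDC2 and 8.05 to 83.0 CPM in cDC1. The name cDC2 is used here for the gate, as labelled. The 2 EGFP-positive cDC1 libraries differed most from each other: the macrophage markers summed to 425 CPM in replicate 1 and 11423 CPM in replicate 2, and 7 fibroblast markers to 136 CPM in replicate 1, where Dcn, Lum and Pdgfra were at 0, and 2.95 CPM in replicate 2, where Col3a1 and Pdgfrb were at 0 as well. Most of that macrophage sum in replicate 2 was Lyz2 (290 and 8773 CPM in replicates 1 and 2), followed by Apoe (1.31 and 1543 CPM). C1qa (0.481 and 4.21 CPM) and Mrc1 (0.175 and 0.211 CPM) were low in both, and Adgre1 went the other way (41.7 and 0.421 CPM). The 10 neutrophil markers measured summed to 0.0438 to 35.6 CPM, and S100a9, Retnlg, Ngp, Mpo and Elane had 0 counts in all 8 libraries. In bulk samples of this kind, fewer cells of a type and less RNA per cell cannot be told apart.

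As a group, the 10 genes took up 10062 and 10478 CPM in EGFP-positive cDC2, 6244 and 5488 CPM in EGFP-negative cDC2, 3690.3 and 1714 CPM in EGFP-positive cDC1 and 1159.97 and 672 CPM in EGFP-negative cDC1. Every cDC2 library lay above every cDC1 library. What made up the sum differed by group. Ccl2, Ccl7 and Ccl8 together were 45.9% and 41.04% of it in EGFP-positive cDC2, against 6.78% and 14.3% in EGFP-negative cDC2. Ccl4 alone was 39.2% and 42.03% of the sum in EGFP-positive cDC1, against 81.1% and 81.9% in EGFP-negative cDC1.

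**Figure D1:**
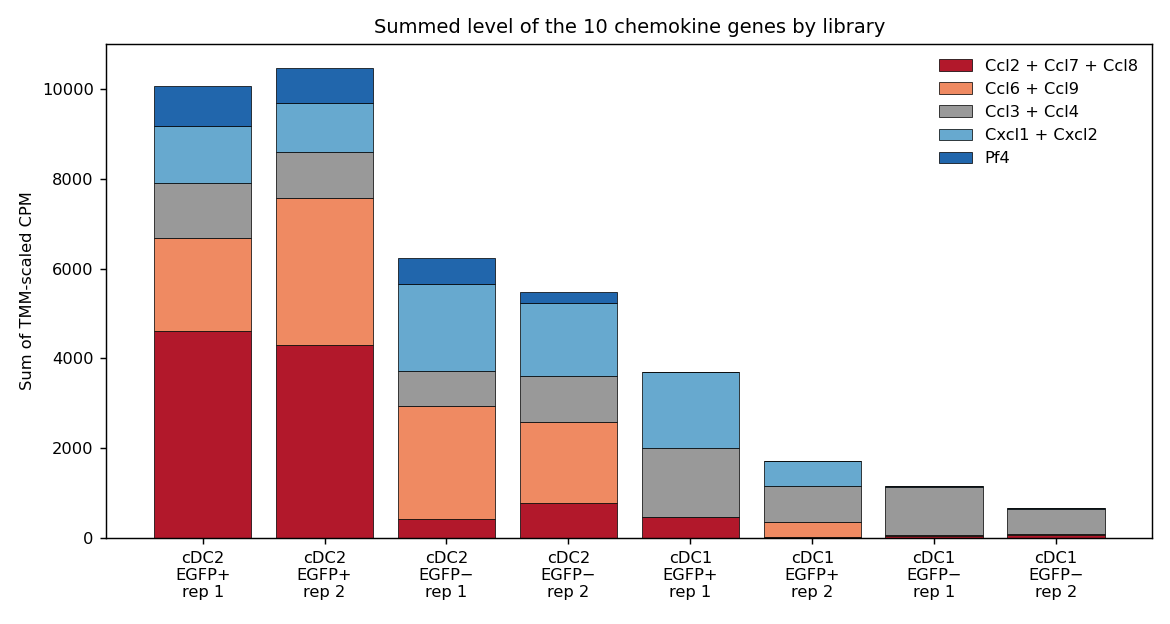
Stacked bars give the sum of TMM-scaled CPM (vertical axis, from 0) of the 10 genes in each of the 8 libraries, split by gene group. The segment of Ccl2, Ccl7 and Ccl8 is 4614 and 4299.7 CPM where cDC2 was EGFP-positive and at most 785 CPM in the other 6 libraries.

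The CC chemokines Ccl2 and Ccl7, whose products attract monocytes through CCR2, and Ccl8, whose mouse product signals through CCR8, were highest in EGFP-positive cDC2. Ccl2 stood at 1222 and 989 CPM in EGFP-positive cDC2 and 113 and 406 CPM in EGFP-negative cDC2. In cDC1 it was at 416 and 9.26 CPM in the EGFP-positive and 46.04 and 57.1 CPM in the EGFP-negative fraction. The EGFP fractions of cDC2 did not overlap, whereas in cDC1 1 EGFP-positive library lay above and the other below both EGFP-negative ones.

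Ccl7 stood at 1797 and 1547 CPM in EGFP-positive cDC2 and 150.4 and 339 CPM in EGFP-negative cDC2. Its cDC1 levels were 45.99 and 3.44 CPM in the EGFP-positive and 0.2804 and 3.45 CPM in the EGFP-negative fraction. All 4 cDC2 libraries were above all cDC1 libraries, the lowest by 3.27-fold over the highest of cDC1. Ccl8 showed the widest gap of the 3 between EGFP fractions. It stood at 1596 and 1764 CPM in EGFP-positive cDC2 and 160.4 and 41.1 CPM in EGFP-negative cDC2. In cDC1 it had 1 and 13 counts in the EGFP-positive and 1 and 3 counts in the EGFP-negative libraries, close to the floor.

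Ccl6 and Ccl9, rodent chemokines that act on CCR1, were high in the whole cDC2 gate. Ccl6 stood at 879 and 1682 CPM in EGFP-positive and 703 and 818 CPM in EGFP-negative cDC2. In EGFP-positive cDC1 it was at 0.306 and 134 CPM, and in EGFP-negative cDC1 at 4.77 and 17.6 CPM. Ccl9 stood at 1187 and 1582 CPM in EGFP-positive and 1803 and 977 CPM in EGFP-negative cDC2. It was at 0.131 and 214 CPM in EGFP-positive and 8.74 and 12.4 CPM in EGFP-negative cDC1. Both genes were thus near the floor in EGFP-positive cDC1 replicate 1 and above every other cDC1 library in replicate 2.

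Ccl3, a ligand of CCR1, and Ccl4, its neighbour in the cluster and a related attractant of monocytes, had the ratios of mean CPM closest to 1 between subsets, at 3.75 for Ccl3 and 0.794 for Ccl4 in cDC2 over cDC1. Ccl3 stood at 247 and 286 CPM in EGFP-positive and 282 and 341 CPM in EGFP-negative cDC2. It was at 83.9 and 80.6 CPM in EGFP-positive and 133 and 10.4 CPM in EGFP-negative cDC1, so all cDC2 libraries were above all cDC1 libraries. Ccl4 overlapped between the subsets. It stood at 982 and 735 CPM in EGFP-positive and 498 and 691 CPM in EGFP-negative cDC2, against 1445 and 721 CPM in EGFP-positive and 941 and 550.3 CPM in EGFP-negative cDC1. Its log2 fold change of cDC2 over cDC1 was −0.33 ± 0.31 (SE), the one negative fitted value among the 10.

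Cxcl1 and Cxcl2 encode the neutrophil attractants that act through CXCR2. Cxcl2 stood at 1157 and 1081 CPM in EGFP-positive cDC2 and 1899.5 and 1582 CPM in EGFP-negative cDC2. In cDC1 it was at 16.6 and 550.1 CPM in the EGFP-positive and 25.7 and 19.9 CPM in the EGFP-negative fraction. It was the one member of the 10 whose EGFP-positive cDC2 libraries both lay below both EGFP-negative ones. Cxcl1 was low in cDC2, at 113 and 28.6 CPM in the EGFP-positive and 52.8 and 43.9 CPM in the EGFP-negative fraction. In cDC1 it reached 1682 CPM in EGFP-positive replicate 1, from 38434 counts, but had 8 counts in EGFP-positive replicate 2 and 3 and 12 counts in the EGFP-negative libraries. The neighbouring genes thus stood at opposite ends in the EGFP-positive cDC1 pair, with Cxcl1 2995-fold higher in replicate 1 and Cxcl2 33.2-fold higher in replicate 2.

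Pf4 encodes platelet factor 4, a CXC chemokine without the Glu-Leu-Arg residues that is stored in platelets and is also made by tissue macrophages. It stood at 885 and 784 CPM in EGFP-positive cDC2 and 581 and 249.7 CPM in EGFP-negative cDC2. It had 4 and 6 counts in EGFP-positive and 2 and 3 counts in EGFP-negative cDC1 libraries. The lowest cDC2 library was 593-fold above the highest cDC1 library, the widest such gap among the 10. Of 10 platelet and megakaryocyte markers, Gp6, Gp9 and Treml1 had 0 counts in all 8 libraries, and the 10 summed to 0 to 1.29 CPM in cDC2 and 0 to 54.3 CPM in cDC1, where Itga2b alone was detected.

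**Figure D2:**
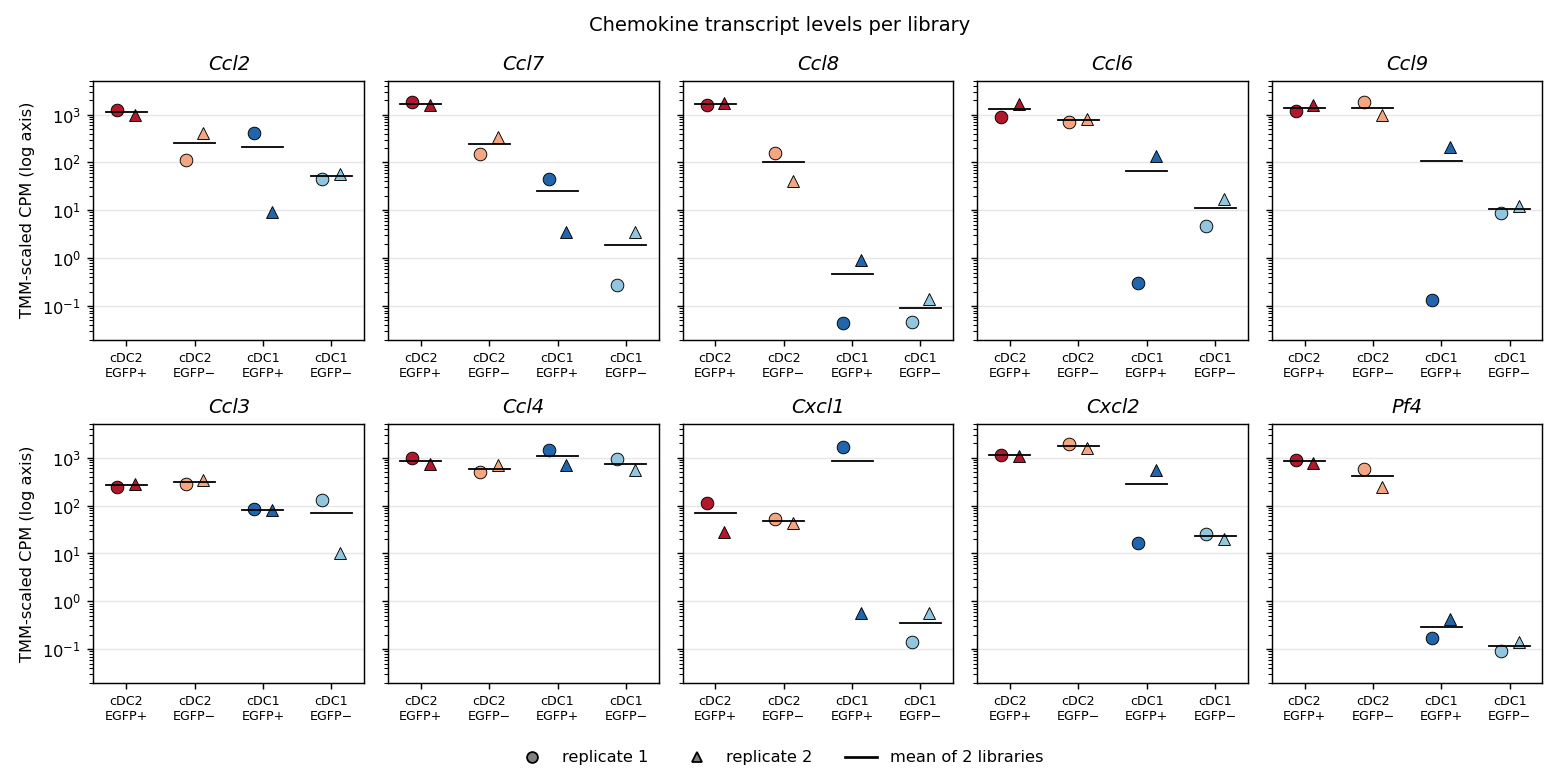
Each panel gives 1 gene, with TMM-scaled CPM on a log axis and the 4 groups along the horizontal axis. Circles are replicate 1, triangles replicate 2 and lines the arithmetic mean of both. Ccl8 and Pf4 lie below 1 CPM in every cDC1 library and above 41 CPM in every cDC2 library, whereas the Ccl4 groups overlap.

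Over both fractions, 7 of the 10 members had all 4 cDC2 libraries above all 4 cDC1 libraries: Ccl3, Ccl6, Ccl7, Ccl8, Ccl9, Cxcl2 and Pf4. The same was so for 8.56% of all genes tested. Since several members were chosen for high levels in the cDC2 gate, nothing is read from this count. Fitted log2 fold changes of cDC2 over cDC1 were 11.59 ± 0.54 for Pf4, 11.10 ± 1.11 for Ccl8, 6.55 ± 1.12 for Ccl7, 5.36 ± 1.85 for Ccl9, 5.17 ± 1.54 for Ccl6 and 4.11 ± 1.46 for Cxcl2 (SE). They were 2.35 ± 0.94 for Ccl2, 1.91 ± 0.60 for Ccl3 and 1.52 ± 6.30 for Cxcl1, whose direction turned with the library left out: it was −1.999 without EGFP-negative cDC1 replicate 1 and 7.04 without EGFP-positive cDC1 replicate 1. The mean CPM of Cxcl1 went the other way, at 59.5 ± 36.9 in cDC2 and 421 ± 841 in cDC1 (SD, n = 4 each), with 1 cDC1 library at 1682 CPM. The cDC1 levels of Pf4 and Ccl8 rest on 1 to 13 counts a library, so their fitted values depend on the prior count of the fit. The macrophage marker sums given above move with the subsets, and their part in these differences was not tested.

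Levels can be compared between genes only per length of transcript, here as CPM per kilobase of the coding transcript in GENCODE. In EGFP-positive cDC2 the order began with Ccl8 (3287 ± 233 CPM per kb, SD, n = 2) and Ccl7 (2087 ± 220.3), which did not overlap each other or the genes below. Pf4 (1418 ± 121), Ccl2 (1359 ± 202) and Ccl4 (1300.4 ± 265) followed and overlapped. In EGFP-negative cDC2 the order began with Cxcl2 (1569.7 ± 202), which lay above Ccl4 (901 ± 207), while Ccl8 was ninth at 197 ± 165 CPM per kb. In EGFP-positive cDC1, Ccl4 led at 1641 ± 777 CPM per kb but overlapped Cxcl1, whose libraries were at 1765 and 0.589 CPM per kb. In EGFP-negative cDC1, Ccl4 (1129.9 ± 419) lay above Ccl3 (93.6 ± 113), and Pf4 and Ccl8 came last at 0.198 ± 0.0557 and 0.183 ± 0.129 CPM per kb. Cxcl1 was last in both cDC2 fractions.

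**Figure D3:**
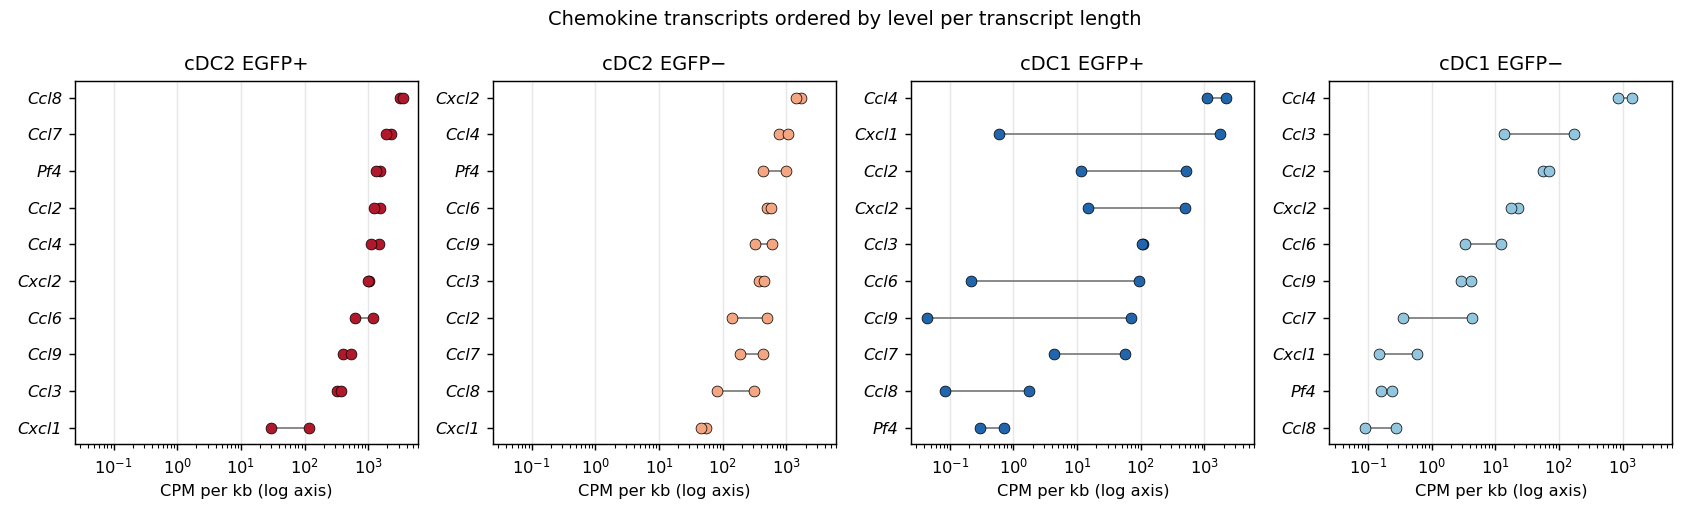
For each group the 10 genes are ordered from the highest mean (top) by CPM per kilobase of coding transcript (log axis), with 1 point per library and a grey line joining the 2 libraries. Ccl8 is first in EGFP-positive cDC2 and ninth in EGFP-negative cDC2.

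Whether cells that carried tumour EGFP differed from those that did not was asked within each subset. In cDC2, the summed level of Ccl2, Ccl7 and Ccl8 was 4457 ± 222 CPM in the EGFP-positive and 604 ± 256.1 CPM in the EGFP-negative fraction, a ratio of 7.37 (SD, n = 2 each). By gene, the ratio of means was 16.7 for Ccl8, 6.83 for Ccl7 and 4.27 for Ccl2. Pf4 followed with 2.01, Ccl6 with 1.68, Cxcl1 with 1.46 and Ccl4 with 1.44, whereas Ccl9 was at 0.996, Ccl3 at 0.853 and Cxcl2 at 0.643.

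By edgeR's quasi-likelihood test, 0 of the 10 members passed an adjusted p of 0.05 in cDC2, as did 0% of the 11394 genes tested. Without adjustment, 300 of all genes (2.63%) had p under 0.05. Of the members Ccl8 alone was higher at that level, beside 1.1% of all genes, and 0 were lower, beside 1.54%. DESeq2 called 110 genes. The largest member difference was that of Ccl8, at 4.06 ± 1.09 on the log2 scale (edgeR, adjusted p = 1), with rank 29 of 11394 genes by p. DESeq2 called Ccl8, at 4.03 on the log2 scale (adjusted p = 0.0121). Ccl7 followed with 2.77 ± 1.35 (edgeR, adjusted p = 1) and Ccl2 with 2.09 ± 1.38 (edgeR, adjusted p = 1). Pf4 had 1.01 ± 0.49 (edgeR, adjusted p = 1). The remaining 6 members had log2 fold changes from −0.64 (Cxcl2) to 0.75 (Ccl6). The median over the 10 was 0.65, against 0.08 over all genes.

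Over all fits that left out 1 library, Ccl8 had a log2 fold change between 3.39 and 5.35, Ccl7 between 2.30 and 3.47 and Ccl2 between 1.44 and 3.29. Without both EGFP-positive cDC1 libraries, an alternative chosen after seeing the data, Ccl8 had 4.06 ± 0.66 (edgeR, adjusted p = 0.684). Among the members, 6 had both EGFP-positive cDC2 libraries above both EGFP-negative ones (Ccl2, Ccl4, Ccl6, Ccl7, Ccl8 and Pf4), beside 22.6% of all genes tested. The reverse held for Cxcl2 alone, beside 19.2% of all genes. The summed macrophage markers overlapped between the fractions, at 35852 and 18498 CPM in EGFP-positive and 39738 and 31825 CPM in EGFP-negative cDC2. By gene, 9 of the 12 overlapped, and Lyz2, Cd68 and Csf1r were lower in both EGFP-positive libraries. Lyz2 stood at 17556 and 10212 CPM in EGFP-positive and 22622 and 18508 CPM in EGFP-negative cDC2. Cd68 stood at 533 and 229.6 CPM in EGFP-positive and 749 and 709 CPM in EGFP-negative cDC2, and Csf1r at 344 and 205 CPM in EGFP-positive and 604 and 507 CPM in EGFP-negative cDC2. Monocyte markers summed to 989 to 1268 CPM in EGFP-positive and 612 to 1536 CPM in EGFP-negative cDC2, with F13a1 alone of the 7 higher in both EGFP-positive libraries. Fibroblast markers summed to 0.208 and 45.7 CPM in EGFP-positive and 2.91 and 2.23 CPM in EGFP-negative cDC2. Epithelial markers summed to 9.73 and 5.60 CPM in EGFP-positive and 0.323 and 23.2 CPM in EGFP-negative cDC2. In cDC1 the epithelial sums were 0.525 and 49.3 CPM in the EGFP-positive and 0 and 25.3 CPM in the EGFP-negative fraction. The part of these markers in the chemokine differences was not tested, nor was the share of tumour-cell RNA in any library.

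**Figure D4:**
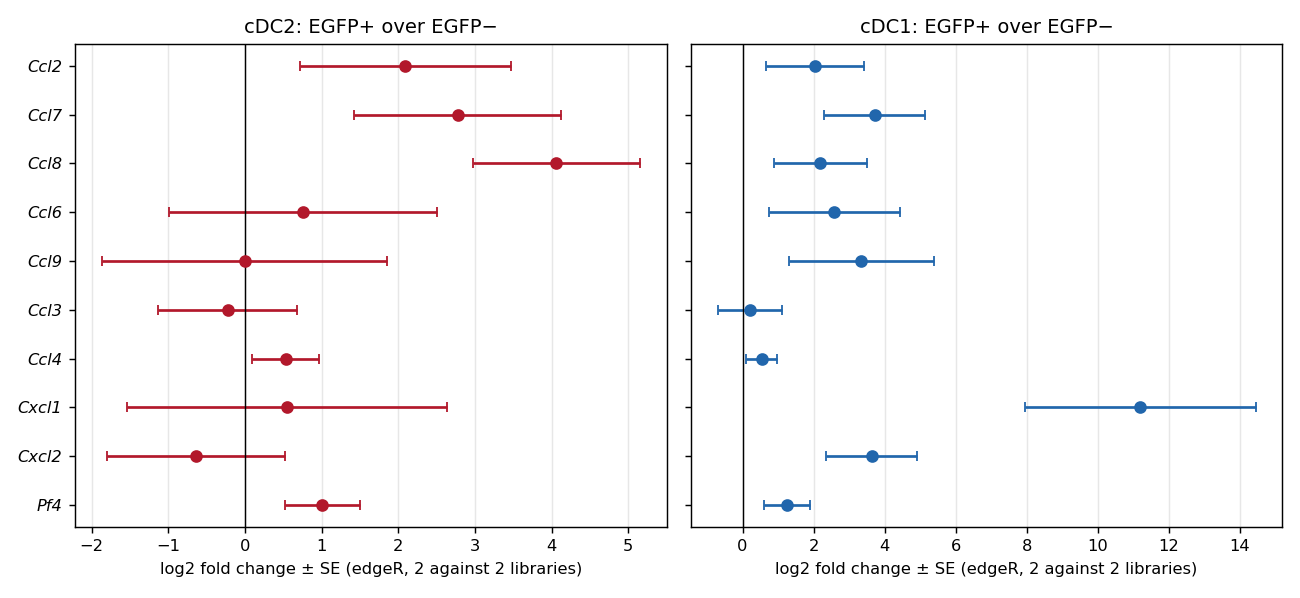
Points are log2 fold changes of EGFP-positive over EGFP-negative libraries with their standard error (edgeR, 2 against 2 libraries), for cDC2 on the left and cDC1 on the right, on separate horizontal scales. Ccl8 has the largest value in cDC2 (4.06), and the Cxcl1 value of 11.21 in cDC1 rests on 1 library.

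In cDC1 the EGFP-positive means were above the EGFP-negative ones for all 10 members, but the replicates disagreed. Here too 0 of 10 members passed (edgeR, adjusted p from 0.272 to 0.992), as did 0% of all genes. Without adjustment, 1452 of all genes (12.7%) had p under 0.05, with 3 members higher beside 4.35% of all genes and 0 lower beside 8.39%. DESeq2 called 1325 genes and the same 3 members, Cxcl1 (11.46), Ccl7 (3.94) and Cxcl2 (3.68 on the log2 scale). By edgeR, the log2 fold change of Cxcl1 was 11.21 ± 3.24 (adjusted p = 0.272) and became 0.68 without EGFP-positive replicate 1. Cxcl2 had 3.63 ± 1.28 (adjusted p = 0.329), which was −0.46 without EGFP-positive replicate 2. Ccl7 had 3.73 ± 1.42 (adjusted p = 0.352), which was 0.89 without EGFP-positive replicate 1. Ccl2 turned from 2.04 to −2.47 without EGFP-positive replicate 1. Without EGFP-positive replicate 2, Ccl6 was at −5.16, Ccl8 at −0.99 and Ccl9 at −6.27, against 2.58, 2.19 and 3.34 with all libraries. Cxcl1 and Pf4 were the only members with both EGFP-positive libraries above both EGFP-negative ones in CPM, beside 11.5% of all genes, and for Cxcl1 the lower EGFP-positive library was at 0.561 CPM and the higher EGFP-negative one at 0.559 CPM. None of the 10 had both below, beside 24% of all genes.

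The EGFP-positive cDC1 pair split the genes into sets. Replicate 1 was higher for Cxcl1, Ccl2 (44.9-fold) and Ccl7 (13.4-fold). Replicate 2 was higher for Ccl6 (438-fold), Cxcl2, Ccl9 (3053 counts, against 3 in replicate 1) and Ccl8 (13 counts, against 1). Ccl3 (1.04-fold) and Ccl4 (2.01-fold) were close. The fibroblast marker sum was higher in the first library and the macrophage marker sum in the second, as given above. Lyz2 made up most of that macrophage sum, and Adgre1 was higher in the first library. Their part in this split was not tested. In EGFP-positive cDC2, by contrast, the fold between replicates was at most 1.91 for 9 of the members and 3.94 for Cxcl1.

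**Figure D5:**
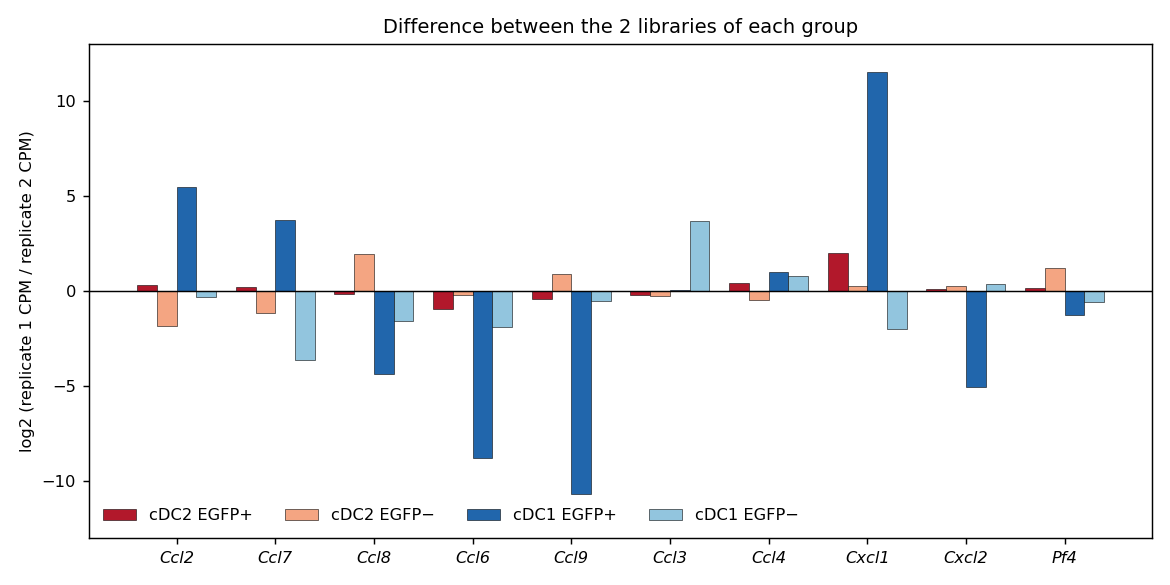
Bars give the log2 ratio of replicate 1 to replicate 2 CPM for each gene and group. The EGFP-positive cDC1 bars run from −10.67 (Ccl9, with 3 counts in replicate 1) to 11.55 (Cxcl1), and that of Ccl8 rests on 1 count in replicate 1, while those of EGFP-positive cDC2 lie between −0.94 and 1.98.

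The difference between the EGFP effects of cDC2 and cDC1 was tested as an interaction. Of the members, 0 passed, as did 0% of all genes (edgeR), and 1180 of all genes (10.4%) had an unadjusted p under 0.05. At that level 2 members were lower, beside 3.19% of all genes, and 0 higher, beside 7.17%. DESeq2 called 714 genes, with Cxcl1 among them (adjusted p = 0.00122). The largest values were those of Cxcl1 (−10.66 ± 3.60, edgeR, adjusted p = 0.428) and Cxcl2 (−4.27 ± 1.70, edgeR, adjusted p = 0.454), which were −0.13 for Cxcl1 without EGFP-positive cDC1 replicate 1 and −0.18 for Cxcl2 without replicate 2. For Ccl8 the difference of effects was 1.87 ± 1.79 (edgeR, adjusted p = 0.801). A larger EGFP difference of Ccl2, Ccl7 and Ccl8 in cDC2 than in cDC1 was thus not shown. The median over all genes was 0.20 here and 0.06 with RLE scaling. Ccl2, at 0.05 ± 1.88 (SE), was −0.20 with RLE scaling, a change well within its SE.

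Each member was also set beside the genes of most similar pattern, by the root mean square difference between log2(CPM + 1) profiles over the 8 libraries, each centred on its mean, among 6065 other genes with at least 10 CPM. Several members were picked for high levels in the cDC2 gate, so nearness to other genes high there is partly built in. Ccl6 and Ccl9 were each other's nearest gene (0.56). The next for both included Msr1, a scavenger receptor of macrophages (0.84 for Ccl6 and 0.81 for Ccl9). Ccl8 was nearest to Pf4 (1.21), then to Folr2, a folate receptor of resident macrophages (1.36). Pf4 was nearest to C1qa and C1qc (0.78 and 1.21), genes of the first complement component. Ccl7 was also near Folr2 (1.42), then Timp2 (1.46) and Ccl12 (1.503).

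The nearest genes of the remaining members were read in the same way. Ccl2 was nearest to Emp1 (0.51), Slc6a8 (0.69) and Gpnmb (0.74). Cxcl1 was nearest to Sdc1 (1.20), which encodes syndecan 1, then Igfbp4 (1.32) and Ptges (1.497), a prostaglandin synthase gene. Cxcl2 was nearest to Sqrdl (0.29), then Mgst1 (0.60) and Clec4a3 (0.64), and Ccl4, which varied little, to Prpf6 (0.20). Ccl3 was nearest to Rai14 (0.46).

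The rest of the chemokine family was read from a list of 28 genes, of which 14 could be tested. Over both fractions, 3 of the 14 were higher and 0 lower in cDC2 by edgeR, beside 0.5% of all genes higher and 0.816% lower. Without adjustment 6 were higher, beside 8.14% of all genes, and 1 lower, beside 5.31%. Cxcl3, a relative of Cxcl2 with which it shares sequence, had a log2 fold change of 8.38 ± 1.34 (edgeR, adjusted p = 0.0192). Ccl12, a mouse ligand of CCR2 from the Ccl2 cluster, had 6.98 ± 1.13 (edgeR, adjusted p = 0.0209). Cxcl9, a T-cell attractant, had 1.82 ± 0.34 (edgeR, adjusted p = 0.0359). For EGFP, 0 of the 14 passed in either subset. Ccl12 stood at 184 and 102 CPM in EGFP-positive and 75.6 and 61.0 CPM in EGFP-negative cDC2. It was at 3.11 and 4.77 CPM in EGFP-positive and 0.187 and 0 CPM in EGFP-negative cDC1, with a log2 fold change of 5.31 ± 1.04 there (edgeR, adjusted p = 0.15).

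Some receptors of these chemokines were read as well. Ccr1 averaged 339 ± 182 CPM in EGFP-positive and 587 ± 159 CPM in EGFP-negative cDC2 (SD, n = 2 each). Ccr2, the receptor of CCL2 and CCL7, averaged 111 ± 23.0 and 133 ± 57.3 CPM in the same groups. In EGFP-positive cDC1 replicate 1, Ccr1 and Ccr2 were at 0.175 and 0.0875 CPM, against 214 and 116 CPM in replicate 2. Cxcr2, the receptor of CXCL1 and CXCL2, had at most 0.156 CPM in any library, and Ccr8 was at 0 in all 8. With 3 counts as the floor, CCR8 transcripts could be present at up to 0.131 to 0.211 CPM.

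Of 18 genes of the NF-kB pathway and of mRNA decay, all were tested and 0 passed in any comparison (edgeR). Without adjustment, 6 were higher for EGFP in cDC1, beside 4.35% of all genes, and 3 lower, beside 8.39%. The 4 of smallest p there were above the EGFP-negative libraries in both EGFP-positive ones. Nfkbia, which encodes the inhibitor IκBα, stood at 1399 and 726 CPM in EGFP-positive and 192 and 90.0 CPM in EGFP-negative cDC1 (log2 fold change 2.91 ± 0.57, edgeR, adjusted p = 0.15). Relb, an NF-kB subunit, had 3.17 ± 0.63 (edgeR, adjusted p = 0.15), Tnfaip3 2.06 ± 0.37 and Nfkbie 1.995 ± 0.36 (edgeR, both at adjusted p = 0.14). The 3 at lower levels were below the EGFP-negative libraries in both EGFP-positive ones. Nfkb1, the gene of another NF-kB subunit, stood at 19.2 and 22.7 CPM in EGFP-positive and 82.6 and 39.9 CPM in EGFP-negative cDC1 (−1.55 ± 0.502, edgeR, adjusted p = 0.296). Zfp36l2, of a family of mRNA decay factors, stood at 24.5 and 14.5 CPM in EGFP-positive and 62.3 and 58.96 CPM in EGFP-negative cDC1 (−1.64 ± 0.4998, edgeR, adjusted p = 0.285). Khsrp, which encodes an RNA-binding protein of mRNA decay, stood at 0 and 0.0702 CPM in EGFP-positive and 12.4 and 12.6 CPM in EGFP-negative cDC1 (edgeR, adjusted p = 0.180). For EGFP in cDC2, 1 of the 18 was higher without adjustment, beside 1.1% of all genes, and 1 lower, beside 1.54%. Nfkbie, the lower one, had −1.58 ± 0.35 (edgeR, adjusted p = 1). It stood at 75.1 and 47.3 CPM in EGFP-positive and 181 and 186 CPM in EGFP-negative cDC2. Zfp36l2 was the higher one (1.804 ± 0.502, edgeR), opposite to its direction in cDC1. It stood at 86.4 and 92.01 CPM in EGFP-positive and 17.7 and 33.3 CPM in EGFP-negative cDC2. Of 16 cytokines and sensors that induce chemokines, 15 were tested and 0 passed (edgeR). Il1b, the gene of interleukin 1 beta, stood at 1792 and 1559 CPM in EGFP-positive and 6174 and 4525 CPM in EGFP-negative cDC2 (−1.67 ± 0.61, edgeR, adjusted p = 1).

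Dpp4, which encodes the peptidase inhibited by the drug in the title of the study and known to trim the amino terminus of some chemokines, stood at 0.625 and 0 CPM in EGFP-positive and 5.66 and 1.11 CPM in EGFP-negative cDC2. It was at 48.0 and 103.7 CPM in EGFP-positive and 181 and 184 CPM in EGFP-negative cDC1.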

How the data were processed

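RNA of 8 sorted samples was reverse transcribed by a published method and made into libraries with a KAPA kit, per the labels' protocols. Trimmomatic 0.39, STAR 2.7.5c, Cufflinks 2.2.1 and the mm10 build are named in the submitters' processing notes. For the read counter, the annotation and strandedness, details were not given in the sources used here, while the table deposited by the authors holds raw read counts, and 0 columns were left without a sample. In R 4.3.3, edgeR 4.0.16 was run with filterByExpr by group, TMM, and robust quasi-likelihood fits. The 4-group model over all 8 libraries gave the EGFP contrasts and the interaction, and an additive model of subset plus EGFP fraction gave cDC2 over cDC1. Adjustment was by Benjamini-Hochberg over 11394 genes, with 0.05 as the threshold. CPM were computed from the counts with the same scaling. Each standard error is the size of the fold change divided by the root of F. The fit was checked on simulated data, where it missed most changed genes. Unchanged genes had the same mean in all groups there, which is simpler than the real data. For EGFP in cDC2 it called 0 of 47 genes changed 4-fold, 10 of 48 changed 16-fold, 15 of 49 changed 64-fold and 22 of 48 changed 256-fold. For EGFP in cDC1 it called 0 of 48, 7 of 47, 14 of 48 and 19 of 50. In each comparison 6 unchanged genes were called as well. A count of 0 passing thus does not show that levels were equal. Replicate profiles of log2(CPM + 1) correlated at 0.686 in EGFP-positive cDC1 and 0.879 to 0.922 in the other groups, across genes, which are not independent replicates. Rn45s, a ribosomal precursor, took 19.4% to 35.6% of the counts per library.

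The members, gene lists and tests were chosen with earlier results of these data known. All members are named. In each list the genes named are among the 4 of smallest p per comparison with at least 5 CPM on average, and for each member the 3 most similar profiles with at least 10 CPM were read. Some genes of the lists are not reported here. Cxcr2, Ccr8, Ccl5, Il6, the 3 lower NF-kB and decay genes and single marker genes were named after their values were seen. Alternatives were DESeq2 1.42.0, RLE scaling, library totals, other filters, removal of Rn45s, the replicate number as a block, the compared libraries alone and leaving out each library. A fit without both EGFP-positive cDC1 libraries was added after the data were seen. Sequences and positions are from RefSeq and GENCODE for GRCm38, the assembly that mm10 names. Floors of 3 counts cover counting error only, since reads copied by PCR and lacking molecular identifiers are no count of molecules.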

Additional observations from a re-analysis of the deposited data

Results flagged for a closer look

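Within the 4 cDC1 libraries, 7 of the 10 genes had 1 library far above the other 3, with a gap above Dixon's critical value for 4 samples. In EGFP-positive replicate 1 these were Cxcl1 (gap over range of 1, after rounding), Ccl7 (0.931) and Ccl2 (0.882). In EGFP-positive replicate 2 they were Cxcl2 (0.983), Ccl9 (0.943), Ccl8 (0.889, from 13 counts) and Ccl6 (0.871). Both fractions were pooled for this check, which used CPM with no log transform. Its rate of about 1 in 20 groups by chance assumes normally distributed values, so it does not apply to CPM this skewed. The 7 come from only 2 libraries. The check was run on the 10 genes alone, so the share of all genes with such a gap is not known. The count is therefore not read as a trait of these genes. No cDC2 library stood apart in this way for any of the 10 genes. The fibroblast markers summed to 136 CPM in replicate 1 and 2.95 CPM in replicate 2, and the macrophage markers to 425 and 11423 CPM. Most of the macrophage sum in replicate 2 was Lyz2, and Adgre1 among these markers was higher in replicate 1. Their part in the split was not tested.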

How the results depend on the processing

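No member passed for EGFP in cDC2 under any edgeR setting run. DESeq2 called 110 genes in cDC2 with 1 member, 1325 in cDC1 with 3 members, 714 for the interaction with 1 member and 1160 between subsets, where edgeR called 0, 0, 0 and 150 genes. Without the low-count filter edgeR called 57 genes in cDC1, 29 for the interaction and 236 between subsets. The cause of these differences was not tested. With the replicate number as a block it called 82 between subsets and 0 members for EGFP. The titles give each replicate number a code shared by the 4 groups, whose meaning the labels do not state, so a shared animal or day remains possible. Same-numbered deviations correlated at −0.22 to 0.04 between groups over 11394 genes, and the block was not taken as the design. Such a correlation over all genes does not exclude pairing. Il6, a cytokine gene, had 237 and 0 counts in EGFP-negative and 602 and 0 in EGFP-positive cDC1 (replicates 1 and 2). In cDC2 it had 574 and 12 counts in the EGFP-negative and 140 and 18 in the EGFP-positive libraries. Ccl5 was also higher in replicate 1, except in EGFP-positive cDC1 (0.0438 and 19.4 CPM). How many genes share this pattern was not tested. Leaving out 1 library gave 0 to 1050 genes and 0 to 4 members in cDC1, 0 to 668 genes and 0 to 3 members for the interaction, and 50 to 277 genes between subsets. For both EGFP in cDC1 and the interaction, calls came only without 1 or the other EGFP-positive cDC1 library, where the remaining one is assumed to vary like the other groups: without replicate 1 Ccl6, Ccl9 and Cxcl2 passed in cDC1, and without replicate 2 Ccl2, Ccl6, Ccl9 and Cxcl1, with Ccl6 and Ccl9 in the opposite direction. The 7 members above cDC1 in every cDC2 library numbered 7 to 9 (9 without EGFP-positive cDC1 replicate 1) and 7 under each other scaling. The interaction of Ccl2 was −0.20 by DESeq2 and RLE scaling and −0.16 with at least 10 CPM in 2 libraries, and EGFP in cDC2 of Ccl9 was 0.000545 in the cDC2 libraries alone. In the cDC1 libraries alone Ccl8 and Pf4 did not pass the filter, so they have no value there.

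Directions that turned without 1 library were, for EGFP in cDC1, Ccl2 (−2.47 to 3.02), Ccl3 (−0.69 to 2.99), Ccl4 (−0.045 to 0.98), Ccl6 (−5.16 to 3.82), Ccl8 (−0.99 to 3.21), Ccl9 (−6.27 to 4.34) and Cxcl2 (−0.46 to 4.595). In cDC2 they were Ccl9 (−0.38 to 0.50) and Cxcl1 (−0.86 to 1.22). For the interaction they were Ccl2 (−0.93 to 4.56), Ccl3 (−3.22 to 0.46), Ccl4 (−0.45 to 0.57), Ccl6 (−3.07 to 5.91), Ccl7 (−3.67 to 1.88), Ccl9 (−4.35 to 6.26) and Pf4 (−0.80 to 0.47). Between subsets it was Cxcl1 (−1.999 to 7.04).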
